A study of Mus musculus with 32 samples.

Results

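The 10 genes described here are the immediate early response genes Fos, Fosb, Jun, Junb, Egr1, Atf3, Ier2, Nr4a1, Nr4a2 and Nr4a3. They were chosen by symbol, each matched to 1 row of the table of raw read counts, and make up 10 of its 50686 genes. RNA-sequencing measured them in iBAT, the interscapular depot of brown fat, whose adipocytes burn fatty acids to make heat, of mice killed by CO2 inhalation at 8 time points, 3 h apart over 24 h. Each time point had 4 libraries, and each library came from 1 mouse. All groups shared a single genotype, strain and treatment: untreated male C57BL/6J mice of 10 weeks of age, fed chow in mild cold and entrained to a 12 h light and 12 h dark cycle. Groups were defined by Zeitgeber time (ZT), the hours since lights on: ZT0, ZT3, ZT6 and ZT9 fell in the light, inactive phase and ZT12, ZT15, ZT18 and ZT21 in the dark, active phase. Because each mouse gave 1 sample at death, no gene was followed in the same animal.

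Immediate early response genes are transcribed within minutes of a signal reaching a cell, such as a growth factor, a nerve impulse, cAMP, calcium or stress, without any need for new protein. Their transcripts are short-lived, and most encode transcription factors that then act on later genes. In brown adipocytes, noradrenaline from sympathetic nerves raises cAMP through beta-adrenergic receptors, and several of these genes, including those of the NR4A family, are known targets of that pathway.

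Library totals ran from 16300770 to 18254659 counts with a median of 17418661, and 3 counts in 1 library corresponded to between 0.164 and 0.184 CPM (read counts scaled to a common library size). The 4 libraries of a time point were sequenced in the same lane: ZT0, ZT3 and ZT6 in lane 2, ZT9, ZT12 and ZT15 in lane 3, and ZT18 and ZT21 in lane 4. Lane and time cannot be told apart across lanes, so tests within each lane are given after those over the day. The 8 brown adipocyte markers, among them Ucp1 and Cidea, were present in every library with a summed level of 9452 to 15420 CPM. Skeletal muscle markers ran from 2.17 to 5709 summed CPM, so libraries held very unequal amounts of muscle RNA. In bulk tissue, fewer cells of a type and less RNA per cell cannot be told apart.

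The sequence just before each gene's start is shown first, as a description. RefSeq (GRCm38.p6) gave a promoter window for 8 of the 10 genes, and the 250 bases upstream of the start were searched. The 5-base core of the cAMP response element, TGACG on either strand (read as CGTCA on the other), was in 7 of the 8 windows, with Jun as the exception, and in 17.8% of 32851 promoter windows of that length. Nr4a1, Nr4a2 and Nr4a3 each held at least 4 of these cores, a number found in 0.137% of the windows. The windows printed are those of Fos, Junb and the 3 NR4A genes, with each core in capitals. They lie at chr12:85473640-85473889 on the plus strand for Fos, at chr8:84978749-84978998 on the minus strand for Junb, at chr15:101266596-101266845 on the plus strand for Nr4a1, at chr2:57124004-57124253 on the minus strand for Nr4a2 and at chr4:48045055-48045152 on the plus strand for Nr4a3. The Nr4a1 window lies inside the annotated gene span, upstream of the start RefSeq gives, and in no exon. For Nr4a3, 152 bases that another transcript uses as exon were left out, so 3 of its cores are shown.
Fos: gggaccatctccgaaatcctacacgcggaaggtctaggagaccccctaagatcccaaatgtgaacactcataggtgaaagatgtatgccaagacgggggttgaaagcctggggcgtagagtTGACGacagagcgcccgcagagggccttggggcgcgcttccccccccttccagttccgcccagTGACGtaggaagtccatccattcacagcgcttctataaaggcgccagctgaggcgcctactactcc
Junb: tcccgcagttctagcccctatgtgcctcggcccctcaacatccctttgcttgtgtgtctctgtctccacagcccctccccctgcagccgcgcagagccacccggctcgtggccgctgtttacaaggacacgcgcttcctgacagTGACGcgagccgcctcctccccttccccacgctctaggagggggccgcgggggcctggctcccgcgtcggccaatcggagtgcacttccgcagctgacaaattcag
Nr4a1: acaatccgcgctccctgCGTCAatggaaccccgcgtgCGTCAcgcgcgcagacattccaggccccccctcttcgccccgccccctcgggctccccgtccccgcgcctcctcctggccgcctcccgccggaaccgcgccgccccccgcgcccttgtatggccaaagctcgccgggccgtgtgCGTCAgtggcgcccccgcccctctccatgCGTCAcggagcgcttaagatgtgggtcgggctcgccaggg
Nr4a2: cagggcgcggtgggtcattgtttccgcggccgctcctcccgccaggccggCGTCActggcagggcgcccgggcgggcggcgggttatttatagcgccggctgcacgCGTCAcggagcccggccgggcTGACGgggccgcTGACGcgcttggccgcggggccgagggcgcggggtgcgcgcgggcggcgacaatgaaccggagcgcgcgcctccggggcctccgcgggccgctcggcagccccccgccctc
Nr4a3: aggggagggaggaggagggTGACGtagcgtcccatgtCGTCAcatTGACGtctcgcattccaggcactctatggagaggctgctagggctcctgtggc

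None of the 8 windows held the full cAMP response element TGACGTCA (1.55% of all windows), a CArG box (1.47%), the AP-1 site TGACTCA or TGAGTCA (4.46%), the EGR site GCGTGGGCG (0.536%) or the NR4A monomer site AAAGGTCA (1.34%), each searched on both strands. The full element contains the 5-base core. All these windows were compared with windows of any base composition, and a match of letters describes the sequence and not its use.

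Averaged over the 32 libraries and divided by exon length, Jun and Nr4a1 had the highest levels, at 18.1 and 17.8 CPM per kb. Egr1 followed at 12.4, Ier2 at 10.2, Junb at 6.08 and Nr4a2 at 5.60 CPM per kb. The other 4 were lower, with Fos at 1.72, Atf3 at 1.02, Nr4a3 at 0.391 and Fosb at 0.147 CPM per kb. By their medians the order changed, with Ier2 at 7.75 CPM per kb ahead of Nr4a1 at 7.67 and Egr1 at 5.71. Single libraries spanned 0.173 to 6.77 CPM per kb for Fos, and the ranges of neighbours in this order overlapped. Fosb was at 3 counts or fewer in 6 libraries, and its folds in those libraries are therefore uncertain.

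Fos, on chromosome 12 (85473890 to 85477273, plus strand, GRCm38), encodes the DNA-binding partner of JUN proteins in the AP-1 dimer. Its values are given for the 4 mice of a time point in the order of the replicate numbers, in CPM scaled by TMM factors. At ZT0 they were 0.642, 4.56, 3.40 and 9.95 CPM, at ZT3 1.32, 15.9, 8.29 and 3.47 CPM, and at ZT6 0.776, 14.7, 0.505 and 1.67 CPM. At ZT9 Fos was at 0.408, 14.7, 1.05 and 2.18 CPM, and at ZT12 at 0.420, 10.9, 1.64 and 2.14 CPM. Through the rest of the dark phase it was at 1.47, 1.95, 0.466 and 0.704 CPM at ZT15, at 1.32, 3.81, 3.04 and 2.35 CPM at ZT18 and at 0.453, 13.5, 0.557 and 1.03 CPM at ZT21. The mouse numbered 2 had the highest value in 7 of the 8 time points, and the time points overlapped throughout. Time point means ran from 1.15 ± 0.686 CPM at ZT15 to 7.25 ± 6.47 CPM at ZT3 (SD, n = 4). Across the 8 time points the edgeR quasi-likelihood test gave an adjusted p of 0.658.

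Fosb, a FOS family member on chromosome 7 (19302696 to 19310051, minus strand), ran from 0.0575 to 6.38 CPM. Its highest values were 6.38 CPM in ZT3 replicate 3, 3.13 CPM in ZT9 replicate 2 and 2.65 CPM in ZT18 replicate 3. Its lowest time point mean was 0.376 ± 0.248 CPM at ZT0 and its highest 2.18 ± 2.83 CPM at ZT3 (SD, n = 4). The test over the time points gave an adjusted p of 0.372 (edgeR).

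Jun, on chromosome 4 (95049034 to 95052222, minus strand), encodes the central AP-1 subunit and shared 7.275% of its exon bases with the antisense gene Junos. At ZT3 it was at 65.2, 47.8, 112.9 and 104.3 CPM and at ZT6 at 20.5, 37.3, 31.0 and 35.6 CPM, so the lowest mouse of ZT3 was above the highest of ZT6, yet that step had an adjusted p of 0.0825 by edgeR and 0.0329 by DESeq2, and of 0.0472 by edgeR without ZT9 replicate 1. At ZT18 it was at 46.3, 78.8, 145.5 and 112.1 CPM and at ZT21 at 18.8, 41.3, 22.7 and 21.6 CPM, again without overlap. Jun differed between the time points (adjusted p = 0.005, edgeR), and its mean was highest at ZT18, at 95.7 ± 42.7 CPM, and lowest at ZT21, at 26.1 ± 10.3 CPM (SD, n = 4). From ZT18 to ZT21, both in lane 4, it fell by 1.87 on the log2 scale (SE 0.43, adjusted p = 0.0194, edgeR). That step did not pass without ZT18 replicate 3, or without ZT21 replicate 1, 3 or 4, with adjusted p of 0.0702, 0.0786, 0.061 and 0.0643. The log2 differences in these fits were -1.59, -1.74, -1.81 and -1.79.

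Junb, on chromosome 8 (84974484 to 84978718, minus strand), encodes a JUN family protein that often opposes JUN. Its exons shared 7.518% of their bases with Prdx2 on the opposite strand, and Prdx2 had a mean of 137.0 CPM. Junb ran from 2.74 CPM in ZT9 replicate 1 to 42.8 CPM in ZT9 replicate 2, so that both extremes belonged to the same time point. Means ran from 7.19 ± 1.18 CPM at ZT15 to 22.3 ± 8.62 CPM at ZT3 (SD, n = 4), and the test over the time points gave an adjusted p of 0.433 (edgeR).

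Atf3, on chromosome 1 (191170296 to 191218039, minus strand), encodes a stress-induced factor that pairs with JUN proteins and represses many genes. At ZT0 it was at 1.03, 2.19, 2.20 and 2.28 CPM, at ZT3 at 1.80, 1.80, 10.0 and 6.05 CPM and at ZT6 at 1.19, 1.24, 1.18 and 1.34 CPM. All 4 mice of ZT3 lay above all 4 of ZT6, and ZT3 replicates 3 and 4 lay above every mouse of ZT0. At ZT18 it was at 3.20, 1.88, 6.14 and 4.20 CPM, above the 0.517 to 1.73 CPM of ZT21. Atf3 differed between the time points (adjusted p = 0.00067, edgeR). It rose by 1.35 on the log2 scale from ZT0 to ZT3 (SE 0.44, adjusted p = 0.0422) and fell by 1.98 from ZT3 to ZT6 (SE 0.46, adjusted p = 0.0198). The fall from ZT18 to ZT21 had an unadjusted p of 0.00257 and an adjusted p of 0.0772, with DESeq2 giving 0.0292.

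Egr1, a zinc finger transcription factor on chromosome 18 (34859823 to 34864984, plus strand), had the widest absolute range after Nr4a1. It was at 20.1, 103.7, 8.94 and 131.6 CPM at ZT0, at 43.7, 178.4, 115.2 and 66.1 CPM at ZT3 and at 11.8, 143.0, 8.69 and 23.6 CPM at ZT6. At ZT9 it was at 4.48, 185.4, 7.92 and 22.2 CPM, at ZT12 at 5.58, 119.8, 16.6 and 28.2 CPM and at ZT15 at 17.1, 28.8, 17.9 and 27.6 CPM. The last time points gave 19.6, 83.1, 93.8 and 53.3 CPM at ZT18 and 7.53, 163.8, 5.46 and 17.1 CPM at ZT21. Replicate 2 was highest in 6 of the 8 time points, and ZT15 was the time point at which the 4 mice were closest. Its means of 22.9 ± 6.18 CPM at ZT15 and 100.9 ± 59.7 CPM at ZT3 (SD, n = 4) were the lowest and highest. The lowest mouse of ZT3, at 43.7 CPM, lay above the highest of ZT15, at 28.8 CPM, and every other pair of time points overlapped. Over the 8 time points the adjusted p was 0.791 (edgeR). With replicate number in the same edgeR model it was 0.0454, as given below.

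Ier2, a small nuclear protein gene on chromosome 8 (84661331 to 84662852, minus strand), had the narrowest range of the 10, from 5.26 to 34.6 CPM, a ratio of 6.57. Its mean was 11.8 ± 2.27 CPM at ZT15 and 22.3 ± 7.96 CPM at ZT3 (SD, n = 4), with an adjusted p of 0.788 over the time points (edgeR).

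Nr4a1, Nr4a2 and Nr4a3 encode orphan nuclear receptors, factors with the fold of a hormone receptor that act without a known hormone. Nr4a1, on chromosome 15 (101254269 to 101274795, plus strand), was at 29.3, 115.6, 386.8 and 139.6 CPM at ZT3, at 4.24, 22.7, 138.9 and 127.6 CPM at ZT18 and at 5.95, 199.0, 5.46 and 5.35 CPM at ZT21. Its lowest and highest libraries, 3.27 CPM in ZT0 replicate 1 and 386.8 CPM in ZT3 replicate 3, differed by a ratio of 118. Nr4a2, on chromosome 2 (57106830 to 57124003, minus strand), ran from 6.24 to 88.7 CPM, and ZT3 replicate 3 was again the highest. Neither passed over the time points, with adjusted p of 0.269 for Nr4a1 and 0.325 for Nr4a2 (edgeR).

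Nr4a3, on chromosome 4 (48045153 to 48086447, plus strand), was low in most libraries and high in a few. At ZT0 it was at 1.03, 1.07, 0.834 and 0.334 CPM, at ZT3 at 1.08, 1.36, 29.1 and 7.58 CPM and at ZT6 at 2.09, 0.887, 0.449 and 2.06 CPM. At ZT18 it was at 0.606, 0.442, 5.52 and 3.82 CPM, and at ZT9, ZT12, ZT15 and ZT21 the 16 values lay between 0.575 and 2.20 CPM. Thus 4 libraries, replicates 3 and 4 of ZT3 and of ZT18, held its 4 highest values. Nr4a3 differed between the time points (adjusted p = 0.000603, edgeR), rose by 3.58 on the log2 scale from ZT0 to ZT3 (SE 0.80, adjusted p = 0.0044) and fell by 2.83 from ZT3 to ZT6 (SE 0.76, adjusted p = 0.0458).

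Many of these differences rested on ZT3 replicate 3. Without that library, Nr4a3 no longer passed over the time points (adjusted p = 0.0603, edgeR). Its log2 difference went from 3.58 to 2.04 between ZT0 and ZT3 (adjusted p = 0.0645) and from -2.83 to -1.28 between ZT3 and ZT6 (0.447). Atf3 still passed over the time points but not from ZT0 to ZT3 (log2 difference 0.73, adjusted p = 0.275) or from ZT3 to ZT6 (-1.37, 0.142). Between ZT0 and ZT3 the differences of Fosb, Nr4a1 and Nr4a2 also shrank, to 1.02, 2.06 and 0.75. The rise of Atf3 from ZT0 to ZT3 also did not pass without ZT0 replicate 1, 2 or 3 or ZT3 replicate 4 (0.129, 0.0768, 0.0792 and 0.0985). There Atf3 had log2 differences of 1.14, 1.41, 1.41 and 1.23. Its fall from ZT3 to ZT6 did not pass without ZT6 replicate 1, 3 or 4 (0.052, 0.0723 and 0.0543), and the fall of Nr4a3 lost its call in 22 of the 32 fits with a single library left out. Apart from the fit without ZT3 replicate 3, the log2 differences from ZT3 to ZT6 in these fits stayed close, at -1.96 to -2.02 for Atf3 and -2.54 to -3.10 for Nr4a3. ZT3 replicate 3 also had the highest summed level of Schwann cell and nerve markers of all libraries, 360.9 CPM against a median of 115.0 CPM, and its part in these values was not tested.

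**Figure D1:**
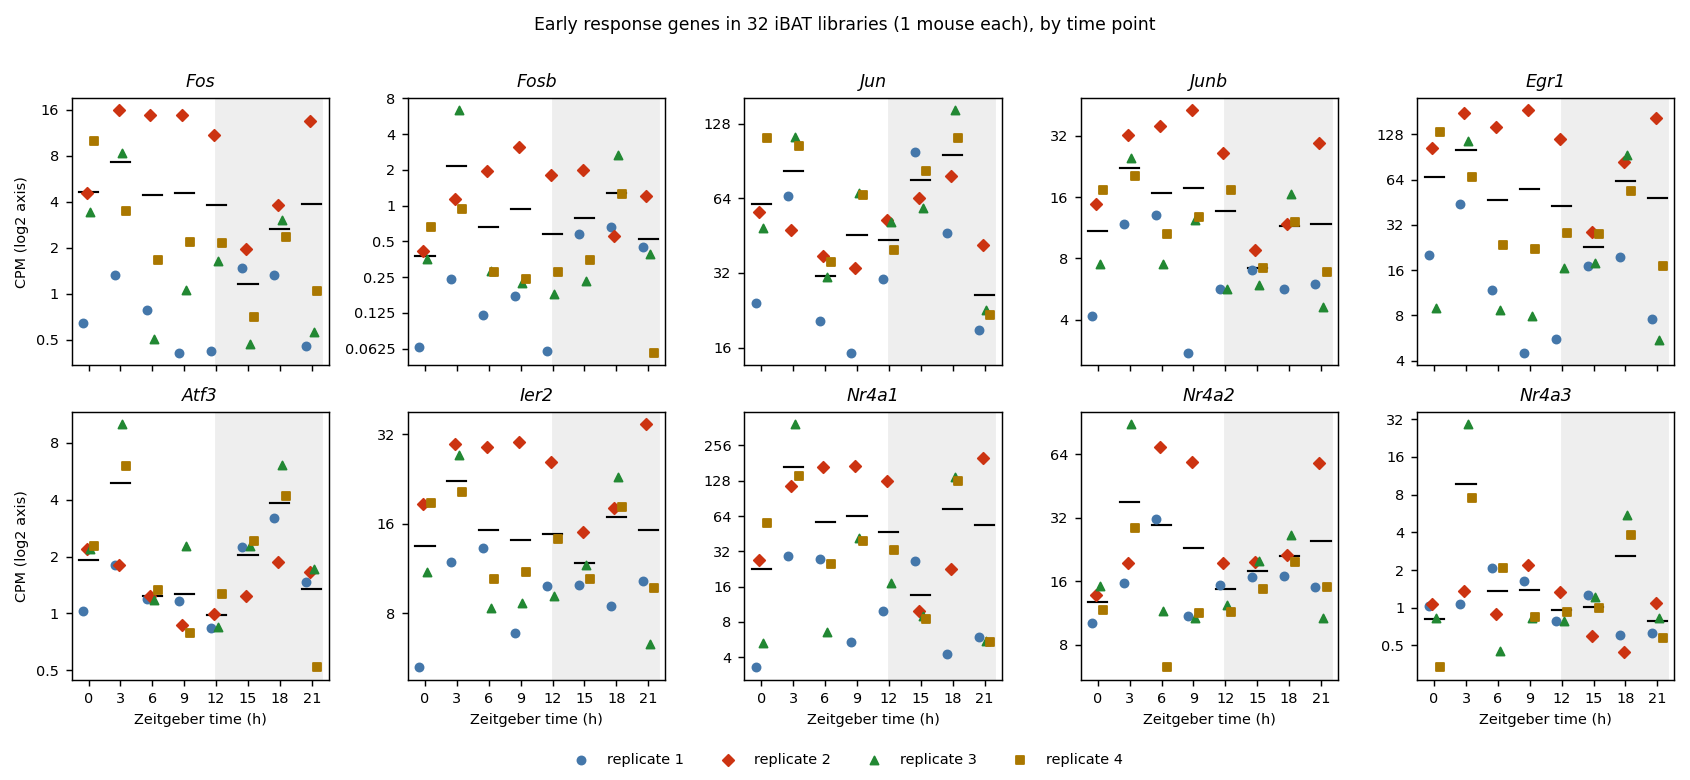
Level of each of the 10 genes in each library (CPM, log axis) against Zeitgeber time (h). Points are single mice, coloured and shaped by replicate number, black bars are time point means and grey shading covers the dark-phase time points. Fos spans 0.408 to 15.9 CPM and Nr4a1 3.27 to 386.8 CPM, and within most time points the 4 mice lie far apart, often with replicate 2 on top.

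Over the whole day, 3 of the 10 genes (Jun, Atf3 and Nr4a3) passed the edgeR test for any difference between the 8 time points, where 39.8% of all 15505 genes tested passed. A cosine with a period of 24 h passed for Nr4a3 (adjusted p = 0.0424, edgeR) and for no other member, against 36.1% of all genes. Nr4a3 passed only narrowly, since it missed the threshold in 13 of the 32 fits that left out 1 library, at 0.781 without ZT3 replicate 3. With all of ZT3 left out, Nr4a3 missed it (0.68) and Atf3 passed (0.0159). With lane in the same edgeR model, 0 of the 10 passed the cosine, and 0 had an unadjusted p under 0.05, against 17.2% of all genes past the adjusted threshold and 30.6% past the unadjusted. JTK cycle analysis, a rank test for oscillation at periods of 21 or 24 h, found 0 of the 10 at P under 0.05 against 36.4% of all genes, or 27.1% after Benjamini-Hochberg adjustment. The lowest JTK P among the 10 was 0.0798, for Atf3, and 1 member passed in 5 of the 32 sets that left out 1 library.

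The mean of the dark phase differed from that of the light phase for 0 of the 10 genes, against 14.2% of all genes. None had an unadjusted p under 0.05 in edgeR, where 27.8% of all genes did, and DESeq2 also called 0 members and 2333 genes in all. Lane 2 held light-phase and lane 4 dark-phase libraries alone, so phase and lane cannot be told apart in most of this comparison. The fitted difference was negative (lower in the dark) for 9 of the 10, with a median of -0.46 on the log2 scale against -0.01 over all genes.

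Between neighbouring time points, all 10 fitted differences were positive from ZT0 to ZT3 and all 10 were negative from ZT3 to ZT6, steps that stay within lane 2. Their medians were 1.19 and -1.26 on the log2 scale, whereas 50.7% and 48.9% of all genes had a positive difference at these steps. Atf3 and Nr4a3 passed in both, so that 2 of 10 passed at each, where 13.8% and 2.08% of all genes did. At the first of these steps 5 of the 10 had an unadjusted p under 0.05, as did 30.3% of all genes, among them Fosb (2.49, SE 1.07, adjusted p = 0.114), Nr4a1 (2.88, SE 1.28, adjusted p = 0.126) and Nr4a2 (1.58, SE 0.64, adjusted p = 0.0911; log2 differences, edgeR). Without ZT3 replicate 3 the medians were 0.74 and -0.70, and the difference of Nr4a2 from ZT3 to ZT6 became positive, at 0.48. The summed levels of other gene lists at ZT0, ZT3 and ZT6 stand beside these steps. Summed stroma markers were at 414 to 597 CPM at ZT0, 730 to 1128 CPM at ZT3 and 583 to 1252 CPM at ZT6, and macrophage markers at 35.3 to 53.2, 55.0 to 88.9 and 47.3 to 82.4 CPM. In each of these lists 2 of 6 genes passed the edgeR test over ZT0, ZT3 and ZT6, where 19.7% of all genes did. Schwann cell and nerve markers had medians of 94.6, 195.9 and 147.3 CPM and heat-shock genes of 2070, 1164 and 937 CPM. Blood markers had medians of 713, 448 and 525 CPM and skeletal muscle markers of 1228, 37.9 and 3.94 CPM at the same time points. In the same test 1 of 6 Schwann cell and nerve markers, 9 of 10 heat-shock genes, 0 of 5 blood markers and 0 of 8 muscle markers passed, and the part of these measures in the 10 genes was not tested. The 10 genes were read in the same libraries and followed each other between mice, so that their shared direction is not 10 separate observations.

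From ZT15 to ZT18, where the lane also changed, all 10 differences were positive, with a median of 0.80 on the log2 scale. Over all genes 50% were positive at that step, with a median of 0.0003. By edgeR 0 of the 10 passed that step, where 1.17% of all genes did. At an unadjusted p under 0.05 there was 1 (Atf3), against 14.8% of all genes. From ZT18 to ZT21 Jun alone of the 10 passed, against 2.06% of all genes. None of the 10 passed by edgeR from ZT6 to ZT9 (1.95% of all genes), from ZT9 to ZT12 (0%), from ZT12 to ZT15 (3.04%) or from ZT21 to ZT0 (7.72%). At an unadjusted p under 0.05 the counts of members in these steps were 0, 0, 1 and 1, against 14.9%, 6.75%, 16.9% and 21.9% of all genes.

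Within lane 2, the test over ZT0, ZT3 and ZT6 was passed by Jun (adjusted p = 0.0481), Atf3 (0.00566) and Nr4a3 (0.00179), which is 3 of 10 against 19.7% of all genes (edgeR). All 3 missed the threshold without ZT3 replicate 3, with Jun at 0.111, Atf3 at 0.0725 and Nr4a3 at 0.0835, and Jun missed it in 21 of the 32 fits that left out 1 library. Within lane 3 (ZT9, ZT12 and ZT15) 0 of the 10 passed, against 5.94% of all genes. At an unadjusted p under 0.05 there were 0, against 20.3% of all genes, and DESeq2 called 0 members and 1254 genes in all. The lane 4 test is the step from ZT18 to ZT21 given above, with 2.06% of all genes passing.

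The time point with the highest mean was ZT3 for 9 of the 10 genes and ZT18 for Jun, and the lowest was ZT15 for 5 of them. Over all tested genes, 15% had their highest mean at ZT3 and 10.1% at ZT18. Without ZT3 replicate 3 the highest mean was at ZT3 for 6 of the 10, since Fosb and Atf3 were then highest at ZT18 and Nr4a2 at ZT6, and it was 8 to 10 without any other single library. With the 4 libraries of ZT3 left out, Jun and Atf3 still passed over the other 7 time points and Nr4a3 did not (adjusted p = 0.125, edgeR).

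Mice of the same time point differed more in these genes than in most others. The SD of log2 CPM about the time point mean was 1.91 for Nr4a1, 1.67 for Egr1, 1.66 for Fos and 1.34 for Fosb, and it was lowest for Jun and Atf3, at 0.65 for each. The median over all 15505 genes was 0.20, and each of the 10 genes lay above the 94th percentile, from 94.5 for Jun to 99.2 for Nr4a1. An SD of 1.66 on this scale is a 3.16-fold difference. Of the total variance of log2 CPM, the share between mice of the same time point was 84.1% for Fos, 85.2% for Ier2, 44.7% for Jun and 42.7% for Atf3, against a median of 58.9% over all genes.

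**Figure D2:**
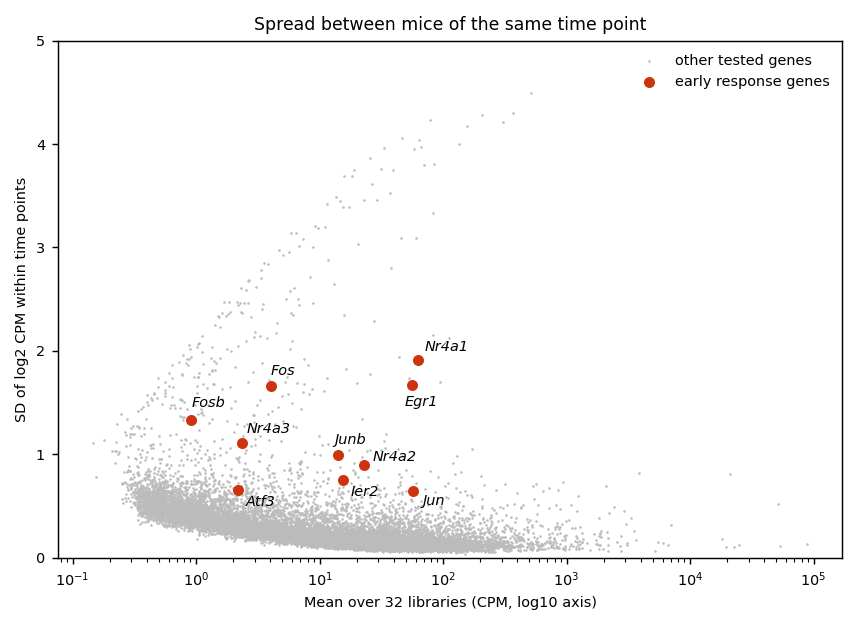
SD of log2 CPM between mice of the same time point (vertical axis) against mean level (CPM, log axis) for the 15505 genes tested (grey) and the 10 early response genes (coloured and named). The 10 lie between 0.65 and 1.91, above the median of 0.20 and the 90th percentile of 0.53 over all genes.

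The spread was not arranged evenly over the replicate numbers, to which the labels give no meaning. Across the 80 combinations of gene and time point, replicate 2 held the highest value in 45 and replicate 1 the lowest in 44. Fos, Egr1, Junb and Ier2 were highest in replicate 2 at 6 or 7 of the 8 time points, whereas Atf3 never was. A test of replicate number beside time point, chosen after these values were seen, called 3 of the 15505 genes (0.0193%) by edgeR. They were Fos and Egr1, both with an adjusted p of 0.0246, and Zfp36, an early response gene whose protein destabilises mRNAs (0.038). At an unadjusted p under 0.05, 9 of the 10 members were below the threshold against 4.84% of all genes. With robust empirical Bayes both were at 0.0925, and with ZT3 left out Fos was at 0.0836 and Egr1 at 0.0745, and 0 genes passed in either. Of the 32 fits with a single library left out, 17 lost the call for Fos and 16 that for Egr1, and DESeq2 called 21 genes, 4 of them members.

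With the 8 libraries numbered 2 left out, also a choice made after the values were seen, 7 of the 10 genes passed the edgeR test over the 8 time points, where 2720 of 15524 genes did. Fosb (adjusted p = 0.012), Egr1 (0.0414), Nr4a1 (0.0251) and Nr4a2 (0.0376) joined Jun (0.0244), Atf3 (0.00322) and Nr4a3 (0.00214), and Fos was at 0.0584. These libraries were left out because they held many of the highest values, and leaving them out lowers the spread between mice by construction, so this count is a description. Nr4a1 also passed when ZT21 replicate 2, its highest value of that time point at 199.0 CPM, was the only library left out (adjusted p = 0.0388).

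**Figure D3:**
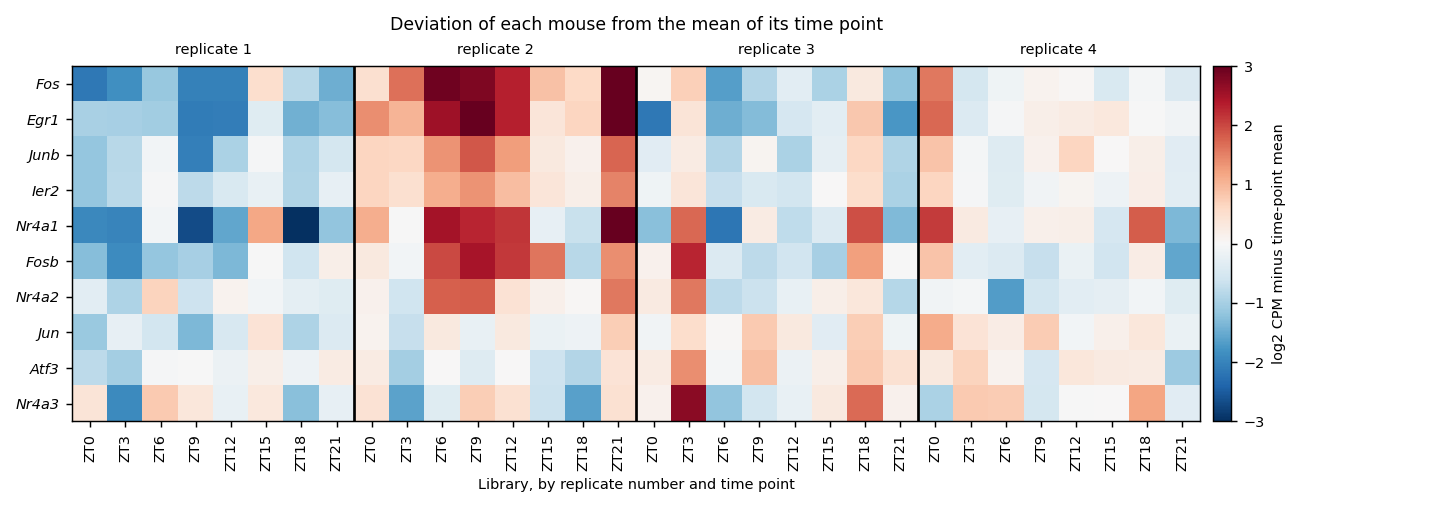
Deviation of log2 CPM from the time point mean for the 10 genes (rows) in the 32 libraries (columns, grouped by replicate number and ordered by time point). The colour scale ends at 3 in each direction, and values beyond take the end colour. Replicate 2 columns are high for Fos, Junb, Egr1 and Ier2 at most time points, and ZT3 replicate 3 is high for Atf3 and the 3 NR4A genes.

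The genes moved together from mouse to mouse. Of the 45 pairs, 44 had a positive correlation of their deviations from the time point means over the 32 libraries, with a median Pearson's r of 0.61. In permutation tests within time points (two-sided, Benjamini-Hochberg over the 45 pairs), 28 pairs passed by r and 31 by Spearman's rho, and 24 to 33 passed by r when 1 library was left out. Fos, Junb, Egr1 and Ier2 formed the tightest set, with r from 0.90 to 0.94 in its 6 pairs.

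For Fos and Egr1, r was 0.91 and rho 0.86, each with p = 1e-05, the smallest the permutations could give (adjusted 5e-05 and 5.62e-05). It was 0.88 without the 2 libraries farthest from the median of Fos, and 0.83, 0.95 and 0.97 within lanes 2, 3 and 4. Fos and Junb gave r = 0.91 and rho = 0.88 (both at permutation p = 1e-05), and r was 0.88 without the 2 farthest libraries and 0.94, 0.89 and 0.94 within the lanes. Junb and Ier2, which lie on the same chromosome, had the highest value of all pairs, r = 0.94 and rho = 0.93, with permutation p of 1e-05 in both cases. Over the 32 libraries the AP-1 partners Fos and Jun were less close, with r = 0.48 (permutation p = 0.0148, adjusted 0.0256) and rho = 0.50 (0.0126, adjusted 0.0226). Their r was 0.44 without the 2 farthest libraries and 0.49, 0.35 and 0.69 within the lanes.

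Nr4a1 correlated with the 4 genes of the tightest set at r of 0.83 to 0.89, Fosb at 0.71 to 0.80 and Nr4a2 at 0.61 to 0.74. Jun stood lower at 0.45 to 0.56, and Nr4a3 at 0.12 to 0.26 and Atf3 at -0.00 to 0.17 were lowest. Fos and Atf3 had r = 0.07 (permutation p = 0.742, adjusted 0.758) and rho = 0.10 (0.611, adjusted 0.625), with 0.27, -0.31 and 0.10 within the lanes. With the means of the replicate numbers removed as well, r of Fos and Atf3 was 0.41 (adjusted permutation p = 0.0368), as given below. Atf3 and Nr4a3 were closer to each other, at r = 0.66 (permutation p = 0.00987, adjusted 0.0185) and rho = 0.51, and r was 0.58 without the 2 farthest libraries. Within lanes 2, 3 and 4 that pair had r of 0.77, 0.05 and 0.72, and it did not pass with ZT3 left out (r = 0.38, adjusted p = 0.191). Among the NR4A genes, Nr4a1 and Nr4a2 had r = 0.66 (permutation p = 0.00029, adjusted 0.000725), while Nr4a1 with Nr4a3 had 0.45 (adjusted 0.0313) and Nr4a2 with Nr4a3 0.42 (adjusted 0.0532).

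With the libraries numbered 2 left out, the 6 pairs of the tight set had r of 0.70 to 0.84 over 24 libraries. The set was picked from the correlations over all libraries. In the same 24 libraries Fos and Jun had r = 0.80 and Jun and Junb 0.80. These were above Fos and Junb at 0.79, Junb and Egr1 at 0.76 and Fos and Egr1 at 0.75. Jun and Egr1 had 0.68.

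**Figure D4:**
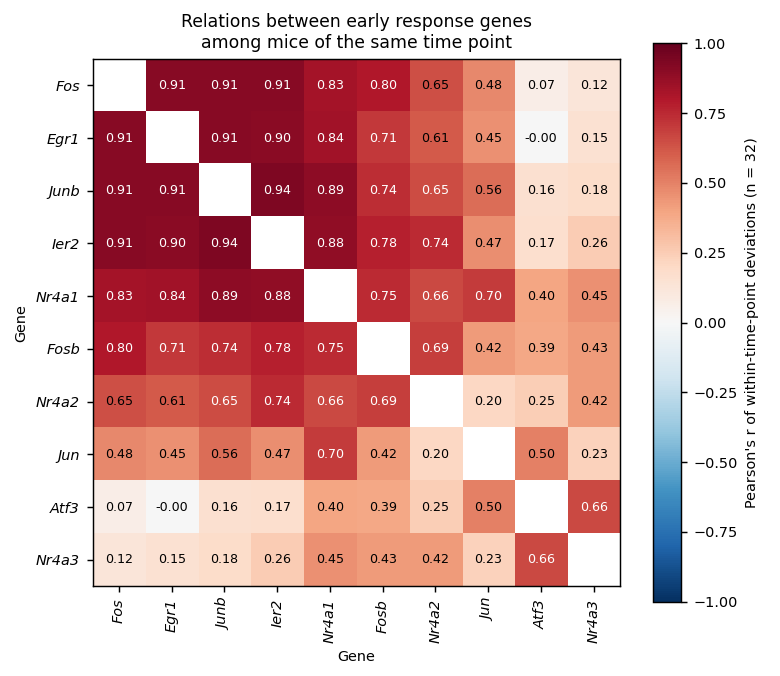
Pearson's r between the within-time-point deviations of log2 CPM for the 45 pairs of the 10 genes over 32 libraries. Fos, Junb, Egr1, Ier2 and Nr4a1 form a block with r from 0.83 to 0.94, and Atf3 and Nr4a3 stay at or below 0.26 with the first 4 of these but reach 0.66 with each other.

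Blood, muscle and library measures were set beside Fos in the same way, with 7 relations in the family. Blood markers (the globin genes and Alas2) had the highest value, r = 0.52 (permutation p = 0.01, adjusted 0.07) and rho = 0.46 (permutation p = 0.023, adjusted 0.161), so that none of the 7 passed. Without the 2 libraries farthest from the median of blood markers r was 0.71. It passed with ZT9 replicate 2 or 3 or ZT15 replicate 1 or 3 left out, which is 4 of 32 such sets. Lane by lane it came to 0.90 in lane 2, 0.05 in lane 3 and 0.79 in lane 4. Summed blood markers were at 514 to 906 CPM in the libraries numbered 2 at 265 to 520 CPM in those numbered 1, at 387 to 1137 CPM in those numbered 3 and at 399 to 855 CPM in those numbered 4. The library with the most, ZT9 replicate 3, had Fos at 1.05 CPM. Apart from this relation, their part in the levels of Fos was not tested. As a description, blood markers also had r of 0.55 with Junb, 0.52 with Ier2, 0.49 with Nr4a1 and 0.45 with Egr1, Jun had 0.55 with endothelial markers and Nr4a2 -0.51 with the mitochondrial share. For Fos, muscle markers had r = 0.24, the share of mitochondrially encoded genes -0.24, heat-shock genes -0.17, library total 0.12, macrophage markers 0.03 and endothelial markers 0.02.

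Other genes of the early response were taken from lists by role. Of 14 tested transcription factors outside the 10, 10 passed the edgeR test over the 8 time points, where 39.8% of all genes did, and 7 of those 10 had their highest mean at ZT3, compared with 14% of all genes that passed. The 5 with the lowest p were Nfil3, a repressor within the clock (highest at ZT0, 37.8 ± 5.07 CPM, adjusted p = 7.43e-09), the clock gene Per1 (ZT12, 118.2 ± 14.7 CPM, 3.45e-06), Csrnp1 (ZT3, 12.6 ± 3.45 CPM, 7.66e-05), the EGR family member Egr3 (ZT3, 3.85 ± 3.68 CPM, 0.000751) and Klf4 (ZT3, 35.4 ± 11.8 CPM, 0.00173; SD, n = 4). Egr3 followed the mean of the 10 members between mice at r = 0.82, and Nfil3 did not, at -0.07. The ZT3 means of this list and of the effector genes below came from the same libraries as those of the members. They were not recomputed without ZT3 replicate 3.

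Of 30 tested effector and feedback genes, 16 passed against the same 39.8% of all genes, and 9 of the 16 were highest at ZT3, as were 14% of all genes that passed. The 5 with the lowest p were Zfp36l1, which destabilises mRNAs (ZT0, adjusted p = 4.15e-07), the NF-kB inhibitor Nfkbia (ZT12, 0.000623), Ier5 (ZT0, 0.000728), the cAMP-induced kinase Sik1 (ZT3, 0.0019) and Plk3 (ZT3, 0.00298), all by edgeR. Sik1 ranged from a lowest mean of 9.16 ± 3.18 CPM at ZT0 to 101.7 ± 72.7 CPM at ZT3 (SD, n = 4). Of the other AP-1, ATF and MAF genes 8 of 12 passed, with Atf5 (2.12e-06), Mafg (5.79e-06), Fosl2 (4.18e-05), Jdp2 (0.000137) and Jund (0.00188) lowest in p. Among 22 genes upstream of the response, encoding SRF, CREB and ERK pathway proteins, 14 passed, and for both of these lists the background is again 39.8%. Between mice, r to the mean of the 10 members was over 0.5 for 8 of the 14 transcription factors, 16 of the 30 effectors, 1 of the 12 AP-1 relatives and 0 of the 22 upstream genes. All 12 clock genes and all 10 heat-shock genes passed over the time points, and none of these 22 had r over 0.5. The share of all tested genes with r over 0.5 is not given here.

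Among 13440 other genes with a mean of at least 1 CPM, those whose deviations were most like the mean of the members over the 32 libraries included Btg2 (r = 0.93), Atg101 (0.81), Ccn1 (0.81), Sertad1 (0.80), Pim3 (0.80), Atp6v0c (0.79), Ppp1r15a (0.79), Egr2 (0.78) and Gem (0.78). Member by member the closest gene differed. For Fos it was Zfp36 (0.89), for Egr1 and Junb it was Ccn1 (0.94 and 0.87), for Ier2 Gadd45g (0.89) and for Fosb and Nr4a1 Btg2 (0.89 and 0.86). For Jun it was its family member Jund (0.82), for Atf3 it was Srf (0.86), for Nr4a2 Sik1 (0.88) and for Nr4a3 Thbs1 (0.85). These values describe likeness only, and genes read in the same 32 libraries share their depth and their tissue makeup.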

How the data were processed

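Raw read counts of 32 iBAT libraries were deposited by the authors as 1 table of counts per gene. According to the labels and methods, stranded paired-end reads were aligned to mm10 with GSNAP and counted with HTSeq 0.6.1, and the strand setting is not given in the sources used here. Of 50686 genes, 15505 passed filterByExpr by time point and held 99.9% of counts. Counts were scaled by TMM and tested with the quasi-likelihood test of edgeR 4.0.16 (R 4.3.3) over all 32 libraries, adjusted over all genes tested at 0.05. JTK was rebuilt with 15 templates at 21 and 24 h. Log2 CPM used a prior count of 2, and correlations used 100000 permutations of mice within time points. P-values judge differences and correlations against the spread between mice. No 2 libraries agreed within sampling noise (lowest mean chi-square per gene 7.97 over 48 pairs of the same time point). Scripts were tested on simulated data.

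The members and gene lists were chosen with earlier results of these data known. Named genes were all 10 members, up to 5 genes of each other early response list with the lowest p in the test over time points, and the genes most like the members, of which 1 is not reported here. The replicate-number test, the fits without ZT3 or without number 2 and the neighbouring genes were added after the data were seen. Gene positions come from GENCODE M21, and promoters from RefSeq. The alternatives were other scalings, filters, DESeq2 1.42.0, robust empirical Bayes, a replicate block, lane terms and leaving out each library.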

Additional observations from a re-analysis of the deposited data

Results flagged for a closer look

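In each time point, the highest and lowest of the 4 mice were compared with the nearest of the others by Dixon's ratio at its 95% critical value, on CPM. Chance passes about 1 in 20 groups of normally spread values, but these levels are skewed towards high values, so that rate does not apply to them as it stands. Of 80 combinations of gene and time point, 20 passed, 18 for a high and 2 for a low mouse, and 16 of the high ones were in replicate 2. Genes were read in the same libraries, so these are not separate observations, and their cause was not tested. On log2 CPM, a scale added after the data were seen, 7 of the 80 passed (4 high, of which 3 in replicate 2, and 3 low), 6 of them among the 20, and no group of Fos or Egr1 did.

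For Fos, replicate 2 stood apart at ZT6 (14.7 CPM), ZT9 (14.7 CPM), ZT12 (10.9 CPM) and ZT21 (13.5 CPM). Egr1 did so in the same mice of ZT6 (143.0 CPM), ZT9 (185.4 CPM) and ZT21 (163.8 CPM). Fosb stood apart in replicate 2 of ZT6 (1.95 CPM), ZT9 (3.13 CPM) and ZT12 (1.80 CPM), and in replicate 3 of ZT3 (6.38 CPM). In ZT21 replicate 2, Junb (29.5 CPM), Ier2 (34.6 CPM), Nr4a1 (199.0 CPM) and Nr4a2 (58.1 CPM) were also far above the other mice. Nr4a1 stood apart in ZT6 replicate 2 (168.7 CPM) and ZT15 replicate 1 (26.7 CPM), and Nr4a2 in ZT9 replicate 2 (58.9 CPM). The 2 low mice were both for Atf3, ZT0 replicate 1 (1.03 CPM) and ZT15 replicate 2 (1.24 CPM).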

How the results depend on the processing

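For the single-gene results compared here, 1166 values kept their direction and side of the threshold, 134 lost it, 27 gained it and 0 reversed. The difference of Nr4a2 from ZT3 to ZT6, not among them, changed sign without ZT3 replicate 3 (-0.36 to 0.48). The count of members with a cosine (1) went to 0 without the libraries numbered 2, with lane as a factor, with no filter, with the replicate block and with robust empirical Bayes. The count over time points (3) was 7 without number 2. The count for replicate number (2) was 4 by DESeq2 and with no filter, and 0 without ZT3 and with robust empirical Bayes. The count of steps (5) was 8 by DESeq2 and 3 without number 2, and that in lane 4 (1) was 2 by DESeq2 and 0 without number 2. Leaving out 1 library at a time gave 0 to 1 for the cosine, JTK and the relations of Fos, 0 to 3 for lane 2, 0 to 1 for lane 4, 0 to 4 for replicate number and 1 to 7 for the steps. The causes were not tested.

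Over all tested genes, same-numbered libraries did not pair: their deviations had a median r of -0.12, 49 of 112 pairs were over 0.1 and 4 of 32 libraries were closest to their own number. For the members alone, replicate 2 held the highest value in 45 of 80 combinations, as given above. With the replicate block, 4 members passed over time points (Egr1 added, adjusted p = 0.0454). Of the steps, the fall of Nr4a3 from ZT3 to ZT6 (0.142) and the rise of Atf3 from ZT0 to ZT3 (0.0501) were lost and the fall of Jun from ZT3 to ZT6 (0.044) was gained, which left 4. In the same block 40 of 45 pairs passed in place of 28, among them Fos with Atf3 (r = 0.41, adjusted p = 0.0368) and Junb with Atf3 (r = 0.51, 0.00566) (the cause was not tested). Other alternatives gave 22 or more.

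Over all genes, leaving out number 2 gave 2720 in place of 6173 calls over time points, 3386 in place of 5602 for the cosine, 939 in place of 2206 for dark against light, and 1222, 258 and 42 in place of 3049, 921 and 320 within lanes 2, 3 and 4. With each lane's libraries fitted alone the lane counts were 1959, 276 and 624, with lane as a factor the cosine count was 2661, DESeq2 gave 540 in lane 4, library totals alone 187 there, and no filter 603 and 190 in lanes 3 and 4. For replicate number, 3 genes became 21 by DESeq2, 6 with no filter, 2 with library totals alone and 0 with robust empirical Bayes or without ZT3. At this depth 3 counts are 0.164 to 0.184 CPM, which limits Fosb most.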

Other observations

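Nearest neighbours on the chromosome were looked up after Atg101 appeared among the genes most like the members. Atg101, an autophagy gene on chromosome 15 (101284272 to 101290945, plus strand), begins 9477 bases downstream of Nr4a1 on the same strand. Its deviations followed those of Nr4a1 at r = 0.75 over the 32 libraries, and its mean level was 17.6 CPM. Grasp, 21513 bases upstream of Nr4a1 on the same strand, had r = 0.55. Prdx2, which overlaps Junb on the opposite strand, had r = 0.41 with it, and Junos, antisense to Jun, had r = 0.03. Both neighbours of Atf3, D730003I15Rik and Batf3, had r = 0.48. The neighbours of Fos, Tmed10 and Jdp2, had r of -0.30 and 0.03. These are descriptions, since counting across gene borders was not tested.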
